A study of Mus musculus with 6 samples.

Results

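The 10 genes described here encode transcription factors and transcriptional inhibitors that set the lineage and state of T cells: Tcf7, Lef1, Id2, Id3, Tox, Gata3, Tbx21, Eomes, Ikzf2 and Foxp3. They were taken by symbol from the 32285 genes of the deposited matrices, and earlier results of these data were known when they were chosen. Their transcripts were counted in single cells of draining lymph nodes from 3 wild-type (WT) mice and 3 mice labelled Pik3cg knockout (KO), all of them given NP-Ova with alum 3 times and sampled at day 34. B cells, class-switched ones above all, were enriched by removing other cells, and the loaded mixture was 70% enriched and 30% untouched cells. Each mouse carried its own hashtag antibody, and the pool was loaded on 2 lanes of a 5' single-cell kit, which repeat one pool and were added together per mouse.

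Pik3cg encodes the catalytic subunit p110γ of a phosphoinositide 3-kinase that acts downstream of G protein-coupled receptors in leukocytes. The part of the gene that was changed, the cells in which it acts, and the strain, age and sex of the mice are not given in the sources used here. All 6 mice shared the immunization, so no group shows the unimmunized state. The T cells described below are those left in a mixture enriched for B cells.

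TCF-1, the product of Tcf7, and LEF-1 are HMG-box proteins that bind DNA together with β-catenin or Groucho corepressors and keep T cells in a naive or memory-like state. ID2 and ID3 bind E proteins and keep them from DNA; ID2 is needed for NK cells and effector T cells, and ID3 accompanies naive, memory-like and B cells. TOX, another HMG-box protein, acts in CD4 lineage choice in the thymus and in chronically stimulated T cells, GATA-3 in CD4 T cells and type 2 responses, and the T-box factors T-bet (Tbx21) and EOMES in cytotoxic lymphocytes. FOXP3 defines regulatory T cells, and Helios (Ikzf2) is found in most thymus-derived regulatory T cells and in some innate-like T cells.

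The promoters of 4 members are shown because these genes had the largest fitted differences in the comparisons of T and NK cells below. Tbx21 and Eomes rose together in NK cells, Foxp3 was highest in T cells with the interleukin-2 receptor alpha transcript, and Lef1 was low in both. Each line holds the 250 bases before the RefSeq transcript start (GRCm38.p6), 5' to 3' on the gene's strand, with matches to the E-box CANNTG, the letters that E proteins bind, in capitals. The Foxp3 window lies inside the GENCODE gene interval given below, since the RefSeq transcript starts downstream of the start of that interval.
Tbx21 (minus strand, chr11:97115332-97115581): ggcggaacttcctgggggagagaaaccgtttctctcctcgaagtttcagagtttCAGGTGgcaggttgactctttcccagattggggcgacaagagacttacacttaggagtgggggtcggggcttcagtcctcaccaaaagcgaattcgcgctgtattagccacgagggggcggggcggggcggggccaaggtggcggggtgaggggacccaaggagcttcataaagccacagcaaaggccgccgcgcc
Eomes (plus strand, chr9:118477939-118478188): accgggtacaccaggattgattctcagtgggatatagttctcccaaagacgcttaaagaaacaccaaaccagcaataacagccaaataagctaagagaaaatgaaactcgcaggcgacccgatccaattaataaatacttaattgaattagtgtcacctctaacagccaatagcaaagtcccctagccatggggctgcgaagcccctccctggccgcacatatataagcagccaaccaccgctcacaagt
Foxp3 (plus strand, chrX:7579426-7579675): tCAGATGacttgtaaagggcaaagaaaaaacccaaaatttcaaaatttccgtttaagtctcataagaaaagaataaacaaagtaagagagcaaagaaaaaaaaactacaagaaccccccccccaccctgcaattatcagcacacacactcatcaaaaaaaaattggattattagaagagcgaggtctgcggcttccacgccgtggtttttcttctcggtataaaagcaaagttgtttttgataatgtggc
Lef1 (plus strand, chr3:131110073-131110322): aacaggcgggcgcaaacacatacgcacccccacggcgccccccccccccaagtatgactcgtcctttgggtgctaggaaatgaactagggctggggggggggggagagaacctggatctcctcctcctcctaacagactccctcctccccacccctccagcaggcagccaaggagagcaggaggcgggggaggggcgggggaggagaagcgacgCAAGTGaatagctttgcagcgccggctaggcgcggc

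Promoters were found for 8 of the 10 members, and for Tox and Ikzf2 none is shown. Of these 8, 5 held 1 E-box match in the 250 bases (Tcf7, Lef1, Id2, Tbx21 and Foxp3), and Id3, Gata3 and Eomes held 0. The E-box reads the same on both strands and occurs in 66.2% of 32851 promoters, so its presence is ordinary. The TCF/LEF core CTTTGA, searched on both strands (TCAAAG), was in 13.8% of all promoters and in 0 of the 8.

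The matrices held 23516 cell barcodes, of which 19270 carried 1 hashtag, and 19208 of these passed limits on UMIs, genes and mitochondrial share. The mice gave 2539 to 4049 cells and 7105625 to 13756152 UMIs (unique molecular identifiers, each a counted transcript), with a median of 1981 to 2476 UMIs per cell. T cells were cells with at least 1 UMI of Cd3d, Cd3e or Cd3g and none of the B cell gene Cd79a; there were 3917, with 390 to 1002 per mouse. Among them 649 held Cd4 and no Cd8 UMI (CD4 T cells), 1445 held a Cd8a or Cd8b1 and no Cd4 UMI (CD8 T cells), and 1793 held neither. T cells with at least 2 UMIs of Ccl5, a chemokine of cytotoxic and memory T cells, numbered 386, and 164 had at least 1 UMI of Il2ra. These groups overlap the CD4 and CD8 groups. NK cells (139, 13 to 48 per mouse) had no Cd3 UMI and at least 2 UMIs of Ncr1, Klrb1c and Klre1 together. B cells numbered 13628.

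The cell groups were checked against marker genes. CD4 T cells had 0 UMIs of Cd8a and Cd8b1, CD8 T cells 0 of Cd4, and NK cells 0 of the 3 Cd3 genes, all by construction, while the 8 T cell markers were each detected in over 10% of CD4 and of CD8 T cells. In T cells B cell marker genes summed to 334 to 427 CPM (UMIs of a gene scaled to a common total per mouse and cell group) in WT and 318 to 696 CPM in KO mice, all from genes other than Cd79a. In the CD4 T cells of KO1, which number 43, B cell genes stood at 1407 CPM and 6 myeloid genes at 730 CPM, against 242 to 388 and 79.0 to 234 CPM in the other 5 mice. Interferon-induced genes summed to 117 to 162 CPM in WT and 87.6 to 747 CPM in KO T cells, with the highest sum in 1 KO mouse. Between lanes, 241 barcode sequences were shared, 134 of them among kept cells. Pik3cg itself did not separate the genotypes: its CPM in T cells was 16.8, 22.1 and 25.9 in WT and 26.8, 32.9 and 16.8 in KO mice. As the changed part of the gene is not given, this transcript count checks nothing. Rnf144a, which lies 5.76 Mb from Pik3cg on chromosome 12, was at 27.2 to 32.4 CPM in WT and 5.93 to 7.46 CPM in KO T cells (log2 fold change -2.18, SE 0.246, adjusted p = 6.6e-05, edgeR).

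The HMG-box pair Tcf7 and Lef1 marked the T cells of the node. Their levels are given in CPM as the mean ± SD over the 6 mice of both genotypes, and they compare cell types within a gene only, since UMI counts from a 5' kit are not scaled to compare genes. Tcf7 (chr11:52252371-52283014) stood at 443 ± 47.3 in CD4, 361 ± 42.3 in CD8, 359 ± 60.9 in Ccl5≥2, 201 ± 115 in NK and 163 ± 14.7 in Il2ra≥1 T cells, against 2.57 ± 1.18 in B cells. Lef1 (chr3:131110471-131224356) stood at 729 ± 68.5 in CD4, 576 ± 29.0 in CD8, 307 ± 67.3 in Ccl5≥2, 242 ± 85.9 in Il2ra≥1 and 84.1 ± 36.7 in NK cells, and at 4.92 ± 2.86 in B cells. In these orders the mice overlapped between all neighbours, except Lef1 in CD8 against Ccl5≥2 T cells and in Il2ra≥1 T cells against NK cells, and except the step down to B cells for both genes. At least 1 UMI of Tcf7 was seen in 61.3% of T cells (Wilson 95% interval 59.7 to 62.8%) and of Lef1 in 69.8% (68.3 to 71.2%), against 0.528% and 1.15% of B cells, which should hold little of either and had a median of 2057 UMIs against 2486 in T cells.

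**Figure D1:**
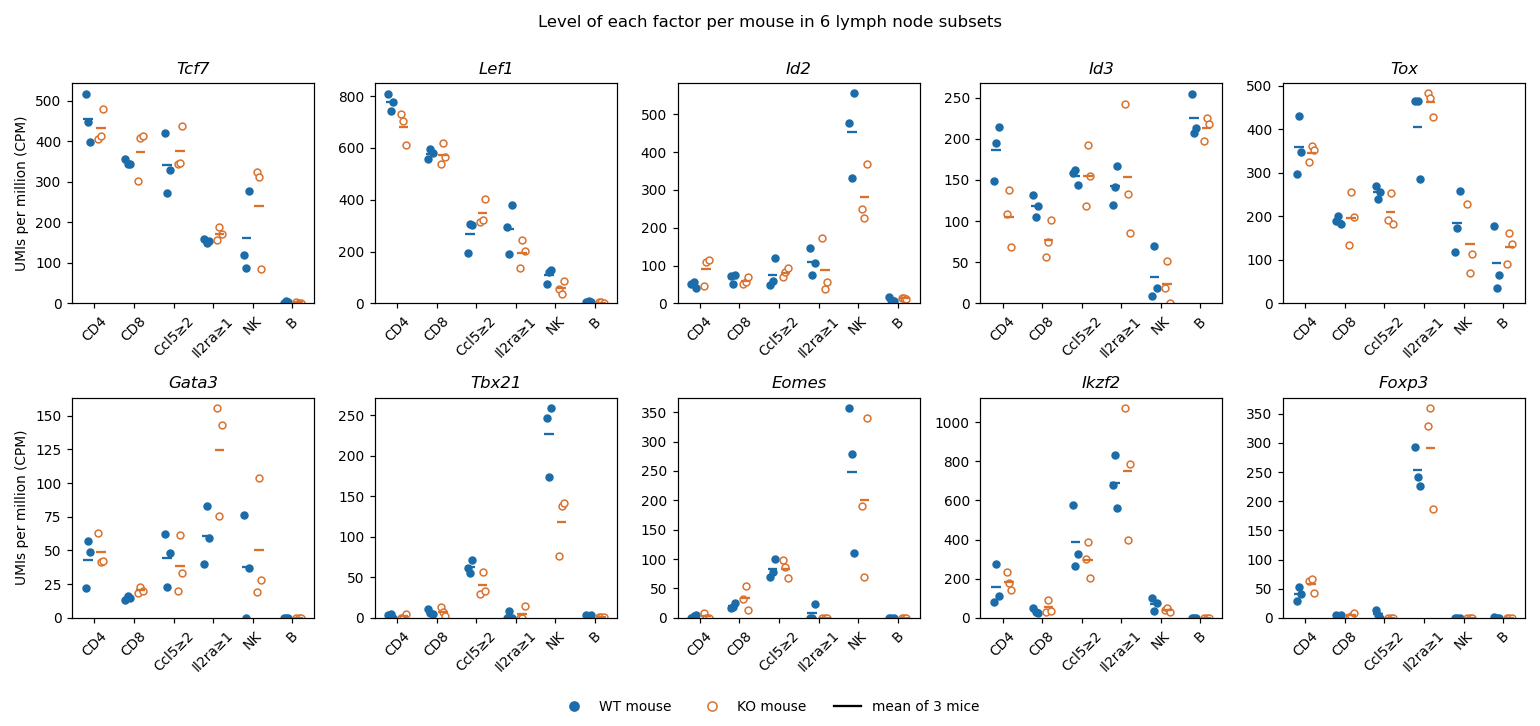
CPM of each factor (y axis, linear, own scale per panel) in CD4, CD8, Ccl5≥2 and Il2ra≥1 T cells, NK cells and B cells (x axis). Each point is 1 mouse, filled blue for WT and open orange for KO, and the short lines are means of 3 mice. Foxp3 and Ikzf2 peak in Il2ra≥1 T cells, Tbx21, Eomes and Id2 in NK cells, and Lef1 in CD4 T cells.

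Id3 was lowest and Id2 highest in NK cells. Id3 (chr4:136143497-136145755) was at 145 ± 53.8 CPM in CD4, 97.9 ± 28.1 in CD8, 155 ± 24.2 in Ccl5≥2, 148 ± 53.2 in Il2ra≥1, 27.9 ± 27.0 in NK and 219 ± 19.9 in B cells. Ordered by level, the mice of neighbouring groups overlapped, NK with CD8 T cells included, except that the lowest B cell value, 197, lay above the highest Ccl5≥2 value, 192. Id2 (chr12:25093799-25097140) was at 69.8 ± 33.3 CPM in CD4, 62.9 ± 11.4 in CD8, 78.9 ± 25.8 in Ccl5≥2, 99.4 ± 52.6 in Il2ra≥1, 367 ± 129 in NK and 12.04 ± 3.15 in B cells; the 4 T cell groups overlapped, and NK cells lay above and B cells below all of them. Tox (chr4:6686353-6991557) was at 434 ± 75.0 CPM in Il2ra≥1, 353 ± 44.3 in CD4, 232 ± 36.4 in Ccl5≥2, 193 ± 38.7 in CD8, 161 ± 73.4 in NK and 111 ± 56.4 in B cells.

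The 5 remaining factors were found in few T cells. Gata3 (chr2:9857078-9890034) was detected in 8.27% of T cells, Eomes (chr9:118478212-118486132) in 4.39%, Foxp3 (chrX:7573644-7595245) in 4.03%, Tbx21 (chr11:97098071-97115331) in 1.68% and Ikzf2 (chr1:69531214-69687245) in 13.4%. The shares in B cells were 0.044% for Gata3, 0.0587% for Eomes, 0.103% for Foxp3, 0.572% for Tbx21 and 0.0881% for Ikzf2. Some B cells use Tbx21 themselves, so their share is no background for that gene. Tbx21 and Eomes each rested on 4 UMIs in CD4 T cells, too few for a level to be read. Foxp3 had 0 UMIs in 139 NK cells, which allows up to 2.16% of cells with a UMI (3 counts, counting error only), and 18 UMIs in 1445 CD8 T cells.

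CD8 T cells had less Foxp3, Ikzf2, Tox, Id3 and Lef1 than CD4 T cells of the same mice. Of the 7 members with enough UMIs to be tested 5 were lower and 0 higher, against 695 of all 4680 genes tested called in either direction (14.9%; 6.58% lower). Eomes, Tbx21 and Gata3 were not tested, so the count of 0 higher leaves them out. Eomes was seen in 6.16% of CD8 (110 UMIs) and 0.616% of CD4 T cells (4 UMIs). For Tbx21 the shares were 1.87% (30 UMIs) and 0.462% (4 UMIs). The median depth was 2903 UMIs in CD8 and 2448 in CD4 T cells. Foxp3 was tested with 79 UMIs in CD4 and 18 in CD8 T cells. Foxp3 was at 28.6, 52.2 and 41.8 CPM in WT and 63.1, 66.7 and 42.1 in KO CD4 T cells, and at 5.45, 3.15 and 4.17 in WT and 0, 3.48 and 8.82 in KO CD8 T cells. The ranges do not overlap, and the log2 fold change was -3.31 (SE 0.332, adjusted p = 2.9e-09, edgeR with the mouse as a block). Ikzf2 was at 82.5, 273 and 111 CPM in WT and 234, 179 and 142 in KO CD4 T cells, against 50.4, 30.7 and 27.1 in WT and 32.5, 92.1 and 37.5 in KO CD8 T cells. Each mouse had more Ikzf2 in its CD4 cells (log2 -1.84, SE 0.208, adjusted p = 3.64e-08, edgeR).

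Tox was lower as well, at 298, 430 and 349 CPM in WT and 325, 363 and 353 in KO CD4 T cells, against 189, 200 and 182 in WT and 135, 256 and 198 in KO CD8 T cells (log2 -0.73, SE 0.0884, adjusted p = 1.42e-07, edgeR). The smaller differences of Id3 (log2 -0.47, SE 0.135, adjusted p = 0.0129, edgeR) and Lef1 (log2 -0.20, SE 0.0614, adjusted p = 0.0225) did not hold throughout. With DESeq2 or either lane alone 3 members were called, and Id3 was lost without WT2 (adjusted p = 0.138), without WT3 (0.148) or without KO2 (0.0528), and Lef1 without WT1 (0.162), WT2 (0.0593) or WT3 (0.12), by edgeR. Tcf7, at 517, 446 and 398 CPM in WT and 406, 413 and 479 in KO CD4 T cells, differed by log2 -0.15 (SE 0.0731, adjusted p = 0.184, edgeR), short of the threshold. Gata3 had too few UMIs for the filter on low counts, and its CPM was 22.2 to 63.1 in CD4 and 13.6 to 22.6 in CD8 T cells, higher in CD4 T cells of every mouse, though the lowest CD4 value lay below the highest CD8 value.

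Other regulators gave the lineage context. Of 28 other T cell transcription factors 17 were tested, 4 were higher in CD8 (the CD8 lineage factor Runx3 by log2 1.98) and 9 lower, among them Zbtb7b, which encodes the CD4 lineage factor ThPOK (-4.55), Maf (-3.65) and Runx1 (-1.24). The median of the tested list was -0.27, against -0.01 over all genes. Of 8 tested regulatory T cell genes 7 were lower in CD8 (Nrp1 -4.78, Il2ra -3.01, Izumo1r -2.64, all log2) and 1, the integrin Itgae, was higher (2.21), with a median of -2.19.

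T cells with Il2ra transcripts carried the regulatory factors and little Tcf7 or Lef1. Of 8 tested members 4 were higher (Foxp3, Ikzf2, Gata3 and Tox) and 2 lower (Tcf7 and Lef1), against 488 of 5678 genes called (8.59%; 3.72% higher and 4.88% lower). Foxp3 was at 293, 241 and 226 CPM in WT and 328, 360 and 186 in KO Il2ra≥1 cells, against 12.7, 13.5 and 14.1 in WT and 8.77, 12.96 and 4.99 in KO Il2ra=0 cells. The 2 groups are far apart in every mouse, with a log2 fold change of 4.36 (SE 0.243, adjusted p = 1.87e-21, edgeR, mouse as a block). Still, only 43.3% of Il2ra≥1 T cells held a Foxp3 UMI, and 2.32% of Il2ra=0 T cells did.

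Ikzf2 followed Foxp3, at 679, 831 and 559 CPM in WT and 1072, 398 and 787 in KO Il2ra≥1 cells, and 76.9 to 178 CPM over the 6 mice in Il2ra=0 cells (log2 2.59, SE 0.16, adjusted p = 1.48e-19, edgeR). Tcf7 stood at 160, 150 and 155 CPM in WT and 156, 189 and 172 in KO Il2ra≥1 cells, where Il2ra=0 cells had 385 to 450 CPM (log2 -1.53, SE 0.157, adjusted p = 4.57e-11, edgeR). Lef1 stood at 293, 191 and 381 CPM in WT and 138, 246 and 200 in KO Il2ra≥1 cells, where Il2ra=0 cells had 574 to 681 CPM (log2 -1.55, SE 0.144, adjusted p = 1.68e-12, edgeR). Both naive-state factors were lower in every mouse. Gata3 was higher by log2 1.29 (SE 0.303, adjusted p = 0.00202, edgeR), at 39.9 to 156 against 27.9 to 37.5 CPM, and Tox by 0.56 (SE 0.136, adjusted p = 0.003), at 285 to 484 against 212 to 294 CPM. The lowest mouse, WT3, with 285 CPM of Tox among Il2ra≥1 cells, lay within the range of Il2ra=0 cells, and without the filter on low counts Tox did not pass (log2 0.29, adjusted p = 0.391, edgeR).

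All 8 naive and recirculation genes were lower in Il2ra≥1 cells (median log2 -0.93, against -0.01 over all genes), including the lymph node homing receptor Ccr7 (-1.35) and Satb1 (-1.06), an organizer of naive T cell chromatin. All 8 regulatory genes tested were higher (Tnfrsf4 4.45, Ctla4 3.88, Nrp1 2.68), Il2ra among them by construction. Cells with an Il2ra UMI also carried B cell marker genes at 246 to 2663 CPM summed over 8 genes in the 6 mice, against 318 to 696 in all T cells, and the part of these in the result was not tested beyond 1 alternative: with stricter removal of B cells 6 members were called. Within CD4 T cells alone the comparison could not be fitted, as Il2ra≥1 CD4 cells numbered 3 to 9 per mouse; in these 38 cells Ikzf2 was seen in 73.7% and Foxp3 in 57.9%.

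Single cells showed the same pairing. Of 158 T cells with a Foxp3 UMI 60.8% held Ikzf2 (38.5 to 70.8% across mice), against 11.4% of 3759 cells without Foxp3 (8.93 to 16.4%). Tcf7 was seen in 36.7% of Foxp3 cells and 62.3% of the others, and Lef1 in 41.8% and 70.9%, though the median depth of the Foxp3 cells, 2306 UMIs, was close to the 2494 of the others. The mice did not overlap for any of these 3 genes. Tox was seen in 58.9% of Foxp3 cells and 39.7% of the others, and Id2 in 5.70% and 13.9%.

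Co-detection was compared with the number expected within each mouse and each of 3 depth classes, since deep cells hold more genes of any kind. Over 76 pairs with enough expected cells in CD4 and CD8 T cells, 9 were above and 7 below expectation in all 6 mice, where the exact sign-flip permutation test over 6 mice gives p = 0.0312 for each, the smallest it allows. After Benjamini-Hochberg adjustment of these permutation tests over the pairs 0 passed (adjusted p = 0.148), with 16 at an unadjusted p under 0.05. At this smallest p a pair could pass only if most of the 76 pairs were on 1 side in all 6 mice. In CD4 T cells Ikzf2 and Foxp3 were together in 35 cells where 7.49 were expected (ratio 4.67), with 2, 11 and 6 cells in WT mice against 0.445, 2.37 and 1.14 expected, and 4, 9 and 3 in KO mice against 0.562, 2.30 and 0.67. Tox went with Ikzf2 (55 cells, 38.2 expected) and with Foxp3 (35, 23.9 expected), and Gata3 with Ikzf2 (17, 8.82 expected).

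Below expectation were Lef1 with Ikzf2 (26 CD4 T cells, 53.9 expected) and with Foxp3 (18, 34.5 expected), and Tcf7 with Ikzf2 (34, 48.4 expected) and with Foxp3 (21, 30.4 expected). None of these 4 pairs passed the adjustment, and none could with so few pairs on 1 side. In CD8 T cells Ikzf2 went with Id3 (34 cells, 18.1 expected) and with Tox (44, 29.7 expected). Tbx21 and Id2 were never seen together in CD8 T cells, where 4.13 cells were expected. Only 27 CD8 T cells held a Tbx21 UMI, and KO3 had 1 such UMI. So few cells cannot show whether the 2 genes exclude each other. Without depth classes 14 pairs were on 1 side in all 6 mice, all of them among the 16. When each cell was reduced to 1000 UMIs by a random draw, again without depth classes, 59 pairs could be tested and 3 were on 1 side, all below expectation. Of the 16 pairs 2 remained, Tcf7 with Ikzf2 and Lef1 with Ikzf2 in CD4 T cells; the third, Lef1 with Eomes in CD8 T cells, had been above in 2 mice and below in 4 before. Tcf7 and Lef1 were then each below with Foxp3 in 5 mice. The pair Ikzf2 and Foxp3 was then seen in 13 cells against 2.17 expected, above in 4 mice and below in 1.

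**Figure D2:**
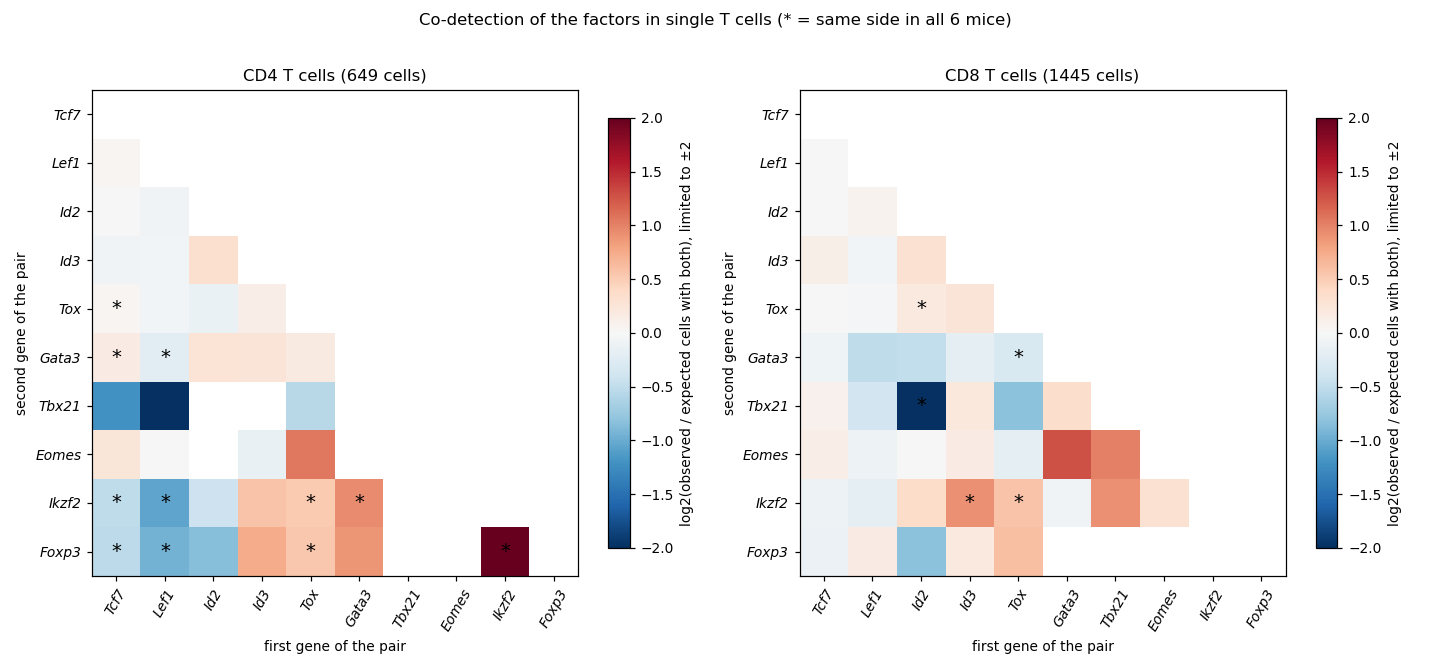
Each square is a pair of factors in CD4 T cells (left, 649 cells) or CD8 T cells (right, 1445 cells), coloured by log2 of the observed over the expected number of cells with both, limited to ±2. Stars mark the pairs on 1 side of expectation in all 6 mice, and pairs with under 1 expected cell are blank. In CD4 T cells Ikzf2 with Foxp3 is at the upper limit, and Lef1 and Tcf7 are below expectation with both.

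Among CD8 T cells those with Ccl5 had less Lef1 and Tox. Of 5 tested members 2 were lower in Ccl5≥2 than in Ccl5=0 CD8 T cells, against 129 of 2580 genes called (5.0%; 3.18% higher and 1.82% lower). Lef1 was at 139, 297 and 308 CPM in WT and 380, 321 and 531 in KO Ccl5≥2 CD8 cells, and at 574 to 702 CPM in Ccl5=0 CD8 cells, lower in all 6 mice (log2 -0.87, SE 0.135, adjusted p = 8.24e-06, edgeR). Tox was at 97.0, 99.1 and 131 CPM in WT and 71.3, 150 and 191 in KO cells, against 157 to 287 CPM (log2 -0.70, SE 0.183, adjusted p = 0.0131, edgeR). That call was lost without WT2 (adjusted p = 0.0718) or KO2 (0.0679) and with DESeq2 (0.15). Id3, at 71.3 to 204 CPM against 51.2 to 134, differed by log2 0.57 (SE 0.214, adjusted p = 0.128, edgeR), short of the threshold. The 132 Ccl5≥2 CD8 cells had a median of 4039 UMIs, against 2807 in the Ccl5=0 cells.

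Tbx21, Eomes and Ikzf2 had too few UMIs for this comparison. Their CPM in Ccl5≥2 CD8 cells was 0 to 69.3 for Tbx21, 13.6 to 130 for Eomes and 13.6 to 249 for Ikzf2, against 0 to 6.39, 10.8 to 31.1 and 12.49 to 88.9 in Ccl5=0 CD8 cells. Without the filter on low counts 5 members passed by edgeR, with Tbx21 (log2 3.64), Eomes (2.04) and Ikzf2 (1.44) higher beside the lower Lef1 (-1.08) and Tox (-0.91). Over all T cells, where Ccl5≥2 cells include many without Cd8, Tbx21 (5.03), Eomes (2.79), Ikzf2 (1.68) and Id3 (0.40) were higher and Lef1 (-1.09) lower, while Tox (-0.20, adjusted p = 0.263, edgeR) did not pass. Of the naive list 4 of 8 were lower in Ccl5≥2 CD8 cells, among them Igfbp4 (-1.88), Dapl1 (-1.21) and Ccr7 (-0.998), and Il7r, the interleukin-7 receptor, was higher (0.40). Of 3 tested effector genes all were higher (S100a6 2.55, Il2rb 2.08, Nkg7 0.60).

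Most Ccl5≥2 T cells held no Cd8 UMI. Of the 386, 132 (34.2%) held Cd8, 5 (1.30%) Cd4 and 249 (64.5%) neither. Neither was seen in 45.8% of all T cells, so a lack of UMIs does not settle the lineage of a cell. The Ccl5≥2 cells with neither had a median of 2415 UMIs, against 4039 in Ccl5≥2 CD8 cells. The part of this depth in the contrast below was not tested. A comparison within Ccl5≥2 cells, added after the Ikzf2 values had been seen, found 2 of 6 tested members higher in the cells with neither and 0 lower, against 208 of 1143 genes called (18.2%; 7.61% higher). Ikzf2 was at 949, 453 and 542 CPM in WT and 474, 565 and 394 in KO cells with neither, against 249, 69.4 and 123 in WT and 35.6, 130 and 13.6 in KO Ccl5≥2 CD8 cells (log2 2.32, SE 0.217, adjusted p = 5.29e-07, edgeR). The groups do not overlap. Tox was at 446, 380 and 391.9 CPM in WT and 280, 324 and 177 in KO cells with neither, against 71.3 to 191 CPM in the CD8 cells, higher in 5 of 6 mice (log2 1.32, SE 0.238, adjusted p = 0.000428, edgeR).

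The cells with neither carried other markers as well. Trdc, which encodes the constant region of the T cell receptor delta chain, was seen in 44.98% of them and in 3.79% of Ccl5≥2 CD8 cells (log2 4.23, SE 0.389, adjusted p = 4.72e-07, edgeR). Trdc was also seen in 17.99% of NK cells, so it is not particular to the cells with neither. The 8 NK marker genes summed to 1829 to 2760 CPM in WT and 2089 to 2237 in KO cells with neither. In Ccl5≥2 CD8 cells these sums were 882 to 1784 and 844 to 1105 CPM. The adaptor genes Fcer1g (3.36) and Tyrobp (3.97), common in innate-like lymphocytes, and Jun (1.80) were higher as well, and Trac, which encodes the alpha chain constant region, was lower (-1.06). Among Ccl5≥2 T cells Ikzf2 was seen in 57.3% of the 117 with a Trdc UMI and in 36.4% of the 269 without; the ranges across mice, 41.7 to 68.8% and 26.4 to 43.4%, overlap. Eomes was seen in 16.2% and 19.3% and Tox in 41.0% and 35.3%.

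**Figure D3:**
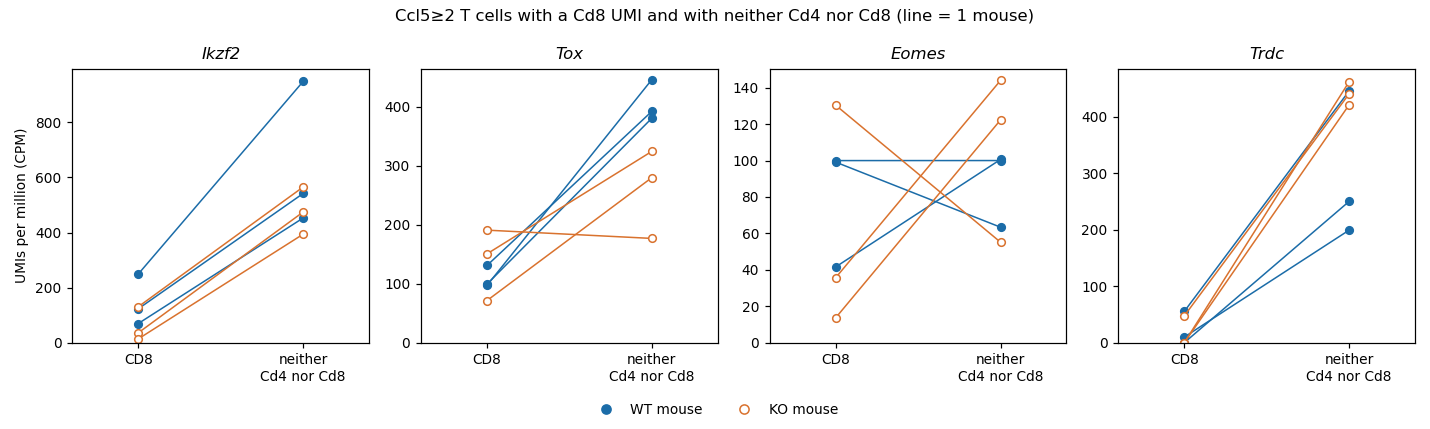
CPM of Ikzf2, Tox, Eomes and Trdc (y axis, linear, own scale per panel) in Ccl5≥2 T cells with a Cd8 UMI and with neither Cd4 nor Cd8; each line joins the 2 values of 1 mouse, filled blue for WT and open orange for KO. Ikzf2 and Trdc rise in every mouse, Tox in 5 of 6, and Eomes goes up in some mice and down in others.

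NK cells combined high Tbx21, Eomes and Id2 with low Lef1 and Id3. Of 9 tested members 3 were higher and 5 lower than in T cells of the same mice, against 1165 of 6251 genes called (18.6%; 7.81% higher and 10.8% lower). Tbx21 was at 247, 174 and 259 CPM in WT and 76.4, 138 and 141 in KO NK cells, against 5.90 to 11.2 CPM in T cells (log2 4.22, SE 0.323, adjusted p = 5.3e-37, edgeR, mouse as a block). Eomes was at 357, 279 and 111 CPM in WT and 191, 69.1 and 340 in KO NK cells, against 15.5 to 36.9 in T cells (log2 3.03, SE 0.257, adjusted p = 4.82e-30, edgeR). Id2 was at 476, 331 and 555 CPM in WT and 248, 225 and 368 in KO NK cells, against 55.7 to 87.6 in T cells (log2 2.02, SE 0.18, adjusted p = 2.77e-27, edgeR). None of these 3 ranges overlapped that of the T cells.

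Lef1 was lower in NK cells by log2 -3.23 (SE 0.197), Id3 by -2.62 (SE 0.352), Ikzf2 by -1.49 (SE 0.272), Tcf7 by -1.38 (SE 0.17) and Tox by -1.12 (SE 0.191), with adjusted p from 6.08e-58 for Lef1 to 6.33e-07 for Ikzf2 (edgeR). The median over all genes was -0.12 in this comparison. Tcf7 was at 84.9 to 325 CPM in NK cells and Lef1 at 34.6 to 130 CPM. Gata3 (0 to 104 CPM in NK, 28.4 to 42.5 in T cells) differed by log2 0.20 (adjusted p = 0.819, edgeR). All 7 tested effector genes were higher in NK cells (Gzma 8.05, Gzmb 6.73, Ccl4 4.99, all log2), and 6 of 8 naive genes lower (Ccr7 -4.30, S1pr1 -3.41). Among other factors Zeb2, which acts with T-bet in mature NK cells, was higher (5.67) and Bcl11b, a T cell commitment factor, lower (-6.33).

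In B cells, where Id3, Tox and Id2 are also used, germinal centre cells differed from cells with Ighd transcripts. The 3766 germinal centre B cells held at least 2 UMIs of 6 germinal centre genes, and the 7433 Ighd B cells had Ighd and none of these. All 3 members were higher in germinal centre B cells, against 7069 of 9910 genes called (71.3%; 33.7% higher), a share that makes a call here common. Tox was at 286, 194 and 247 CPM in WT and 188, 240 and 212 in KO germinal centre cells, and at 0.613 to 3.87 CPM in Ighd B cells (log2 6.99, SE 0.138, adjusted p = 1.23e-14, edgeR, mouse as a block). Id2 was at 16.5 to 19.8 CPM against 1.58 to 8.16 (log2 1.91, SE 0.236, adjusted p = 3.29e-06, edgeR). Id3 was at 232 to 268 CPM against 149 to 243, with overlapping ranges (log2 0.28, SE 0.0692, adjusted p = 0.00232, edgeR). Germinal centre cells had a median of 4465 UMIs and Ighd B cells 1812.

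Between genotypes 0 of the 10 members passed the threshold in any of the 8 comparisons by edgeR (adjusted p under 0.05), and 0 by DESeq2. In T cells, where all 10 were tested and 30 of 8668 genes were called (0.346%), 4 members had an unadjusted p under 0.05, Id3, Id2, Ikzf2 and Eomes, as had 7.12% of all genes. In CD4 T cells 1 of 3744 genes (0.0267%) was called and 2 of 8 tested members had an unadjusted p under 0.05 (Id2 and Id3; 6.78% of genes); in CD8 T cells 31 of 6075 genes (0.51%; 0.247% higher and 0.263% lower) and 3 of 8 members (Id3, Eomes and Ikzf2; 6.91% of genes). In Ccl5≥2 T cells 4 of 2760 genes (0.145%; 0.0362% higher and 0.109% lower) were called and 0 of 9 members had such a p, as had 6.16% of genes; in Il2ra≥1 T cells 0 of 966 genes (0.0%) were called, 35 of them (3.62%) had such a p, and 0 of 6 members did. In NK cells 5 of 751 genes (0.666%) were called and 1 of 3 members, Id2, had such a p, as had 12.3% of genes. In germinal centre B cells 10 of 10045 genes (0.0996%; 0.0697% higher and 0.0299% lower) were called and 0 of 3 members had such a p (5.11% of genes), and in Ighd B cells 4 of 9538 genes (0.0419%; 0.0315% higher and 0.0105% lower) and 1 of 2 members, Id3 (7.04% of genes). Each test had 3 mice a side.

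A lack of overlap between the mice of the 2 genotypes was common over all genes. Among genes with at least 40 UMIs in a cell group it was seen for 12.8% in T cells and 3 of 10 members (Id2, Id3 and Gata3), for 12.6% in CD4 T cells and 2 of 8 members (Lef1 and Id3), and for 12.5% in CD8 T cells and 2 of 8 members (Id3 and Gata3). It was seen for 12.1% of genes and 3 of 8 members in Ccl5=0 CD8 T cells (Id3, Gata3 and Ikzf2), for 11.1% and 1 of 9 in Ccl5≥2 T cells (Lef1), for 14.4% and 1 of 5 in NK cells (Tbx21), and for 11.6% and 2 of 4 in germinal centre B cells (Id2 and Tbx21).

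Id3 came closest. In T cells it was at 162, 144 and 141 CPM in WT and 94.1, 121 and 104 in KO mice. The ranges do not overlap, and all KO mice were lower (log2 -0.46, SE 0.102, adjusted p = 0.0535, edgeR). The call turned on the setting: it passed without the filter on low counts (adjusted p = 0.00104), with stricter removal of B cells (0.0423), in lane 1 alone (log2 -0.67, 0.0218), without KO2 (0.0173) and without cells rich in interferon-induced genes (0.0206), and not in lane 2 alone (log2 -0.27, 0.806), with DESeq2 (0.152) or without any other 1 mouse (0.157 to 0.264). Without Ccl5≥2 and Trdc≥1 cells, a setting chosen after seeing the data, Id3 was at 153, 141 and 139 CPM in WT and 86.8, 101 and 79.1 in KO mice (log2 -0.68, SE 0.111, adjusted p = 0.0045, edgeR).

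The direction was the same in both lineages. In CD4 T cells Id3 was at 149, 195 and 214 CPM in WT and 108, 138 and 68.5 in KO mice, which do not overlap (log2 -0.80, SE 0.234, adjusted p = 0.491, edgeR; 0.0339 without the filter). In CD8 T cells it was at 132, 105 and 118 CPM in WT and 55.7, 74.7 and 101 in KO mice, which do not overlap either (log2 -0.56, SE 0.167, adjusted p = 0.156, edgeR). In the test of the difference between lineages 3 of 5621 genes were called (0.0534%; 0.0178% higher and 0.0356% lower) and 0 members. It gave for Id3 log2 0.27 (SE 0.301, adjusted p = 0.979, edgeR). In Ccl5≥2 T cells the means were 155 ± 9.62 CPM in WT and 155 ± 37.0 in KO mice (SD, n = 3), and in Ighd B cells Id3 was at 243, 212 and 205 CPM in WT and 149, 210 and 191 in KO mice (log2 -0.22, SE 0.102, adjusted p = 0.704, edgeR).

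Id2, whose product also binds E proteins, was at 66.6, 55.7 and 74.9 CPM in WT and 84.0, 87.6 and 86.8 in KO T cells, without overlap (log2 0.40, SE 0.12, adjusted p = 0.241, edgeR). Among CD4 T cells the values were 50.8, 57.0 and 41.8 in WT and 45.1, 108 and 116 in KO mice, with KO1 among the WT values (log2 0.98, SE 0.29, adjusted p = 0.491, edgeR). In CD8 T cells they were 72.2, 50.4 and 76.1 in WT and 51.1, 57.4 and 70.5 in KO mice, and the lineages' difference in this response was log2 -1.03 (SE 0.345, adjusted p = 0.585, edgeR), not past the threshold. In NK cells Id2 was lower in KO on the mean (454 ± 114 against 280 ± 76.8 CPM, SD, n = 3) with overlapping mice (log2 -0.73, SE 0.291, adjusted p = 0.306, edgeR). The 8 NK marker genes were themselves at 13120 to 21210 CPM in WT and 8037 to 11900 in KO NK cells, the 6 myeloid genes at 6255 to 8590 and 5094 to 5669, and the 6 interferon-induced genes at 18.5 to 87.1 and 173 to 649; their part in the NK values was not tested. Id2 lies 7.08 Mb from Pik3cg on chromosome 12, so the knockout and any linked difference between strains cannot be told apart for this gene.

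Eomes and Ikzf2 were higher on the mean in KO T cells, with overlapping mice. Eomes was at 15.6, 15.5 and 21.5 CPM in WT and 36.9, 34.2 and 16.8 in KO mice (log2 0.76, SE 0.242, adjusted p = 0.29, edgeR), and Ikzf2 at 145, 120 and 103 in WT and 175, 186 and 123 in KO mice (log2 0.42, SE 0.132, adjusted p = 0.281). Both passed without KO3 (adjusted p = 0.0364 and 0.0348, edgeR), and Ikzf2 passed without the filter on low counts (0.0119). In CD8 T cells the 3 KO values of Ikzf2 were 32.5, 92.1 and 37.5 CPM against 50.4, 30.7 and 27.1 in WT, and the KO2 mouse alone stood out; without it the log2 fold change was 0.06, against 0.75 with all mice. In CD8 T cells without Ccl5 Ikzf2 was at 26.7, 28.0 and 12.49 CPM in WT and 28.8, 88.9 and 43.8 in KO mice, which do not overlap. For Eomes in CD8 T cells (16.3, 18.1 and 25.0 in WT and 32.5, 53.9 and 13.2 in KO mice) the range over left-out mice was log2 0.22 to 1.21.

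A larger share of KO than of WT T cells held Ccl5 or Trdc transcripts. In the fit without Ccl5≥2 and Trdc≥1 cells, chosen after seeing the data, neither Eomes nor Ikzf2 passed the threshold. Neither had passed with these cells included. The part of these shares in the Eomes and Ikzf2 values was not tested beyond this fit. The share of T cells with at least 2 Ccl5 UMIs was 7.33, 6.49 and 8.04% in WT and 16.7, 14.7 and 12.3% in KO mice (exact permutation p = 0.1, two-sided, the smallest that 3 against 3 mice allow), and the share with a Trdc UMI was 5.34, 4.09 and 3.904% in WT and 13.9, 11.4 and 7.95% in KO mice (exact permutation p = 0.1). Trdc was higher in KO T cells by log2 1.36 (SE 0.176, adjusted p = 0.000292, edgeR) and Ccl5 by 0.81 (SE 0.0867, adjusted p = 4.55e-05). In Ccl5=0 T cells Eomes was at 9.76, 9.95 and 10.1 CPM in WT and 19.15, 18.0 and 9.07 in KO mice. Ikzf2 was at 104, 110 and 73.9 CPM in WT and 136.5, 144 and 91.8 in KO Ccl5=0 T cells, and the genotypes overlapped for both genes. Within Ccl5≥2 T cells Eomes was at 69.0, 78.8 and 100 CPM in WT and 98.4, 85.8 and 67.3 in KO mice, and Ikzf2 at 579, 264 and 324 in WT and 300.2, 388 and 202 in KO mice, and the genotypes overlapped for both. Lef1 was there at 193, 306 and 304 CPM in WT and 315, 323 and 404 in KO mice, without overlap (adjusted p = 0.814, edgeR). Ccl5 itself, by which these cells were chosen, was at 5433 to 6033 CPM in WT and 5320 to 5802 in KO Ccl5≥2 T cells, which overlap. Of the stress and early response genes set beside these results, Hspa1a (log2 -1.42) and Jun (-0.65) were lower in KO T cells. In KO CD8 T cells Hspa1a (-1.96), Jun (-1.28) and Fos (-1.08) were lower. Fos overlapped between genotypes in T cells, at 119 to 146 CPM in WT and 80.2 to 136 in KO mice. In CD4 T cells both Jun (133 to 247 and 63.2 to 270.5 CPM) and Fos (135 to 147 and 73.7 to 225 CPM) overlapped. The part of these genes in the results above was not tested.

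Gata3, Tcf7, Lef1, Tox and Foxp3 had an unadjusted p above 0.05 in T cells. Gata3 was at 28.4, 32.5 and 36.8 CPM in WT and 42.5, 38.8 and 37.3 in KO T cells, which do not overlap by a small margin (adjusted p = 0.766, edgeR). In CD8 T cells it was at 13.6, 16.5 and 14.6 CPM in WT and 18.6, 22.6 and 19.8 in KO mice, again without overlap, from 75 UMIs (log2 0.47, SE 0.35, adjusted p = 0.862, edgeR). In Il2ra≥1 T cells it was at 39.9, 83.1 and 59.5 CPM in WT and 156, 75.7 and 143 in KO mice, which overlap, from 41 UMIs. Tcf7 was at 406 ± 22.8 CPM in WT and 411 ± 32.9 in KO T cells, Lef1 at 643 ± 19.4 and 600 ± 44.7, Tox at 287 ± 22.7 and 254 ± 36.1, and Foxp3 at 23.5 ± 1.5 and 22.6 ± 5.0 (SD, n = 3). In CD4 T cells Lef1 was at 810, 743 and 776 CPM in WT and 730, 705 and 611 in KO mice, lower in every KO mouse but not past the threshold (adjusted p = 0.772, edgeR). Foxp3 was seen in 4.15 ± 0.268% of WT and 3.86 ± 0.469% of KO T cells (exact permutation p = 0.5), and Il2ra in 4.13 ± 0.543% and 4.54 ± 0.901% (exact permutation p = 0.6).

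**Figure D4:**
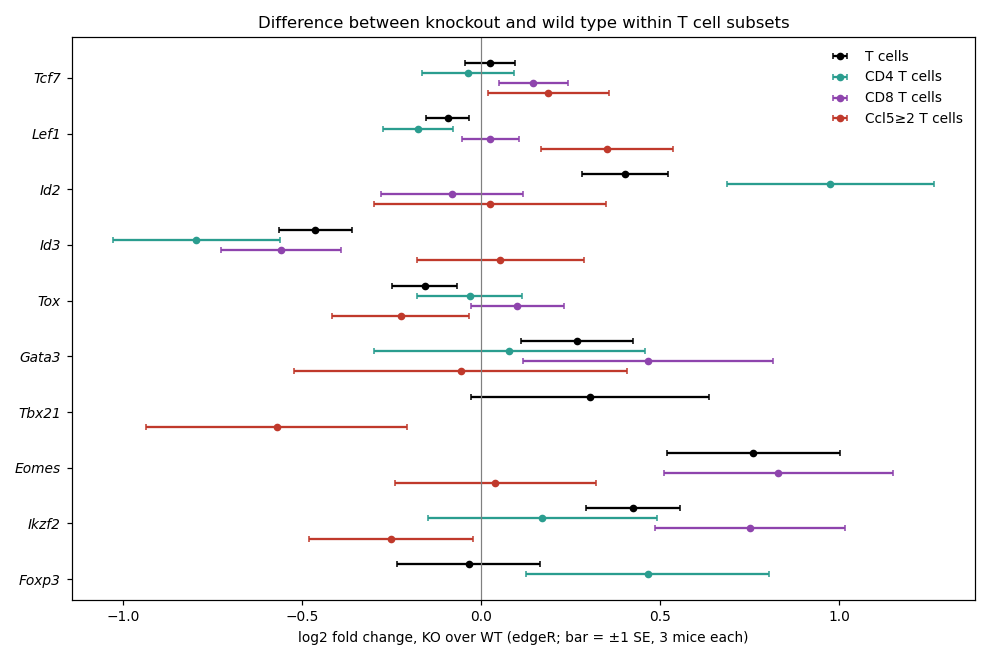
Log2 fold change, KO over WT, of each factor in T cells (black), CD4 (green), CD8 (purple) and Ccl5≥2 T cells (red), with bars of ±1 SE from edgeR and 3 mice per genotype; factors that did not pass the filter on low counts have no point. Id3 lies left of 0 in T, CD4 and CD8 cells and near 0 in Ccl5≥2 T cells, and no factor passed the threshold.

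Shares of cells with a UMI, after each cell was reduced to 1000 UMIs, were compared as well. Of 20 comparisons (10 members in CD4 and in CD8 T cells) 3 had no overlap between genotypes, all in CD4 T cells. Lef1 was seen in 53.3, 49.1 and 56.0% of WT and 40.5, 45.2 and 38.2% of KO cells, Id3 in 14.8, 13.8 and 17.0% and 9.52, 11.8 and 5.88%, and Ikzf2 in 5.74, 7.55 and 5.66% and 9.52, 11.8 and 10.3%. Each had an exact permutation p of 0.1 and an adjusted p of 0.667 (Benjamini-Hochberg over the 20), and the unreduced shares had 6 of 20 comparisons without overlap. Cells under 1000 UMIs, 3 WT and 3 KO CD4 and 9 WT and 5 KO CD8 T cells, were left out.

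Which members separated depended on the draw and the depth. In a second draw Lef1 separated in CD4, and Tox and Gata3 in CD8 T cells, where 11.4% and 11.1% of genes seen in at least 10 cells did. The expected share over all draws, added after seeing this, separated Lef1 and Id3 in CD4 (12.6% of genes) and Id3 and Gata3 in CD8 T cells (12.5%). At 1500 UMIs it separated Id2, Id3 and Ikzf2 in CD4 (12.3% of genes) and Id3 and Gata3 in CD8 T cells (12.0%). Lef1 in CD4 T cells was then expected in 63.5, 59.3 and 62.7% of WT and 59.6, 56.5 and 52.2% of KO cells, which overlap, and in the single draw at 1500 UMIs its means differed by -1.17 percentage points, against -11.5 at 1000. Id3 was lower without overlap in both lineages and at both depths by the expected share, at 13.2, 14.4 and 16.8% in WT and 9.79, 11.3 and 6.75% in KO CD4 T cells at 1000 UMIs.

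Of the 8 naive and recirculation genes 1 was higher in KO T cells (Il7r, log2 0.38, adjusted p = 0.00493, edgeR) and 2 in KO CD8 T cells (Il7r 0.47, adjusted p = 0.00255, and Dapl1 0.44, adjusted p = 0.0263). The medians of the other 5 lists in T cells lay between -0.002 and 0.26 on the log2 scale, against 0.003 over all genes. In KO NK cells the effector genes Ccl4 (log2 -2.72, adjusted p = 0.0042, edgeR) and Prf1 (-1.26, adjusted p = 0.0385), which encode a chemokine and perforin, were lower, 2 of 7 tested, beside the lower NK marker sum given above, which holds Prf1. S100a6, a calcium-binding protein gene of the effector list, was lower in KO Ccl5≥2 T cells (log2 -1.83, adjusted p = 0.0313, edgeR) and higher in KO Ighd B cells (1.18, adjusted p = 0.0316, edgeR).

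The genes whose pattern was most like each member's were taken over 30 sums (5 non-overlapping T and NK cell groups in 6 mice) among 5334 genes. These correlations describe log2 levels that share library and depth, and carry no test. A group among the 5, Il2ra≥1 CD4 T cells, held only 3 to 9 cells per mouse, fewer than the 10 asked of tested sums. Foxp3 was most like Ctla4 (Pearson r = 0.914) and Ly6c1 (0.913), and Ikzf2 most like Tnfrsf4 (0.795) and Sdf4 (0.77). Of these, Ctla4 and Tnfrsf4 are carried by regulatory T cells. Tbx21 was most like the NK receptor genes Klre1 (0.905), which helped define the NK cells, and Klra1 (0.899), and Eomes most like Sytl3 (0.91). Lef1 was most like Als2cl (0.904) and Igfbp4 (0.893), Tcf7 most like Vipr1 (0.818), Id3 most like Lat (0.874), Id2 most like Tmsb4x (0.892), Tox most like Plcl1 (0.858) and Gata3 most like Katna1 (0.819).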

How the data were processed

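Gene expression libraries of 2 lanes (10x 5' V(D)J kit) were analysed. The deposited counts are raw UMI counts per gene and cell from Cell Ranger 7.0.1, per the file headers, on build mm10, per the submitters' processing notes; the authors' deposited hashtag table assigned 19270 of 23516 barcodes to 1 mouse, and 3902 barcodes with several hashtags and 344 with none were left out. Doublets of 1 mouse were not removed. Cells with at least 500 UMIs, 200 genes and at most 10% mitochondrial UMIs were kept. The mouse is the replicate, and UMIs were summed per mouse and cell group, with at least 10 cells in each tested sum. CPM is UMIs scaled to a common total of that sum. Groups were cut on raw UMIs that use no member.

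Sums were tested with edgeR 4.0.16 (R 4.3.3; quasi-likelihood, TMM, filterByExpr, Benjamini-Hochberg over all genes tested, threshold 0.05, two-sided), with the mouse as a block between cell groups; DESeq2 1.42.0, RLE factors, no filter, stricter limits, single lanes and leaving out mice were alternatives. On simulated CD8 counts (5819 genes) the fit recovered 96 of 100 genes changed 2-fold and 100 of 100 changed 4-fold, with 12 false calls. The changed genes were drawn only from genes with a higher mean CPM. This recovery therefore does not cover sparse members such as Eomes and Gata3, or the smaller cell groups. Intervals are Wilson 95% and, like floors (3 counts), cover counting error only. Shares of cells with a UMI were compared after a random draw of 1000 UMIs per cell, with 1500 UMIs and the expectation over all draws as alternatives. Python 3.11.15 and scipy 1.17.1 gave the permutation tests.

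The 10 members are named in every comparison; for likeness the 3 nearest genes were ranked, and up to 4 genes per context list are named. Members, cell groups and context lists were chosen with earlier results of these data known. The planned comparison of Il2ra≥1 with Il2ra=0 within CD4 T cells was replaced by one over all T cells. Gene positions are from the GENCODE annotation of GRCm38 and promoters from RefSeq. The V(D)J and surface antibody libraries were used only for hashtags and to count cells with a B cell receptor. The results of a gene outside the members are not reported here.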

Additional observations from a re-analysis of the deposited data

How the results depend on the processing

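No paired analysis was possible because WT and KO mice share no replicate number, litter or batch in the labels, and the 2 lane numbers name technical runs of one pool; comparisons between cell groups kept the mouse as a block throughout. Of the counts of members past the threshold, these moved. Between genotypes in T cells the count was 0, with 2 without the filter on low counts, 1 with stricter removal of B cells, 1 in lane 1 alone, 1 without interferon-rich cells, 1 without Ccl5≥2 and Trdc≥1 cells, and 0 to 2 when a mouse was left out; in CD4 T cells it was 0, with 1 without the filter. CD8 against CD4 went from 5 to 3 with DESeq2, 3 in lane 1 and 3 in lane 2, and 3 to 5 without a mouse. Ccl5≥2 against Ccl5=0 CD8 T cells went from 2 to 1 with DESeq2, 5 without the filter, 5 over all T cells, and 1 to 3 without a mouse. Shares without overlap went from 3 to 6 unthinned, 4 and 5 by the expected share at 1000 and 1500 UMIs, 4 in a draw of 1500 UMIs, and 3 to 7 without a mouse. Co-detected pairs on 1 side in all 6 mice went from 16 to 14 without depth classes and to 3 with cells reduced to 1000 UMIs and no depth classes, where 59 of the 76 pairs could be tested. The causes were not tested. RLE scaling moved no call. Single lanes could not be fitted for the Il2ra, NK and Ccl5≥2 contrasts between cell groups, and the comparison within Il2ra≥1 CD4 T cells was not run. Tox in Il2ra≥1 T cells lost its call without the filter (log2 0.29, adjusted p = 0.391, edgeR). The Ccl5 and Trdc setting, the interferon setting, the expected shares and the contrast within Ccl5≥2 cells were chosen after seeing the data. Depth limits Tbx21, Eomes, Gata3 and Foxp3 most, at 79 to 366 UMIs in all T cells.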

Other observations

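Tbx21 had values in groups where it was too sparse to be tested. In NK cells it was at 247, 174 and 259 CPM in WT and 76.4, 138 and 141 in KO mice, from 70 UMIs in 139 cells, without overlap between genotypes, where the 8 NK marker genes were also lower without overlap (13120 to 21210 CPM in WT and 8037 to 11900 in KO mice). In germinal centre B cells, where T-bet marks a share of activated B cells, it was at 5.13, 4.65 and 3.63 CPM in WT and 1.34, 0.667 and 1.81 in KO mice, from 46 UMIs in 3766 cells, again without overlap. Of these cells WT2 gave only 127 and WT3 261. With so few UMIs per mouse, in NK cells as well, the part of counting error in the gap was not tested. A Tbx21 UMI was seen in 1.14% of germinal centre B cells, against 0.336% of Ighd B cells, which had fewer UMIs per cell. In Ccl5≥2 T cells it was at 62.1, 55.6 and 72.0 CPM in WT and 29.5, 57.2 and 33.6 in KO mice, which overlap. Of all genes with at least 40 UMIs 14.4% did not overlap between genotypes in NK cells and 11.6% in germinal centre B cells.

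Over all T cells, a setting added after seeing the data, 13 member pairs were above and 8 below expectation in all 6 mice, with an adjusted p of 0.067 for each (exact sign-flip permutation, Benjamini-Hochberg over 45 pairs). Ikzf2 was with Foxp3 in 96 cells (21.6 expected), with Id3 in 185 (115 expected), with Gata3 in 88 (44.1 expected) and with Tbx21 in 21 (9.45 expected). Eomes and Foxp3 were never seen in 1 cell, where 6.72 were expected. These expected numbers were not set within the CD4 and CD8 groups, and the part of lineage in the pooled counts was not tested. Within CD4 and CD8 T cells 9 of 76 pairs were above and 7 below expectation in all 6 mice. Within Ccl5≥2 T cells 0 of 41 pairs were above and 1 below.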
